A study of Mus musculus with 58 samples.

Results

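The genes described here are 9 transcription factors tied to microglial identity: Sall1, Sall3, Spi1, Irf8, Mef2a, Mef2c, Maf, Runx1 and Cebpa. They were taken by symbol from 3 tables of raw read counts, which together list 25387 gene symbols, and all 9 were found in each table. Microglia were sorted from mouse forebrain as CD11b+, CD45low, CX3CR1+ single cells that excluded the dye DAPI, and their polyadenylated RNA was sequenced in 58 libraries. The mice were C57BL/6, either wild type (WT) or SgshKO, which lack the lysosomal enzyme sulfamidase encoded by Sgsh and model the storage disease mucopolysaccharidosis type IIIA. Untreated mice were 3 weeks old (3 WT and 4 SgshKO libraries), 4 months old (2 WT and 2 SgshKO) or 8 months old (4 WT and 7 SgshKO). The other libraries came from mice given 1 injection into a brain ventricle, with microglia collected 14 days later. WT mice received saline (PBS), a non-targeting control antisense oligonucleotide (ntc ASO), or a targeting ASO (Mitf, Tfeb or Tfe3), with 4 libraries for each of these 5 treatments. SgshKO mice received the ntc ASO or ASOs against Mitf and Tfe3 together, with 8 libraries each. The age of the injected mice is not given in the labels, and an ASO injected into a ventricle reaches other brain cells as well as microglia.

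Microglia are the resident macrophages of the brain, and their identity rests on a layered set of transcription factors. Spi1 (PU.1), Irf8, Runx1 and Cebpa act in the myeloid lineage as a whole; Spi1 opens macrophage enhancers, Irf8 is its frequent partner, Cebpa drives early myeloid commitment and Runx1 is needed for blood formation. Sall1 is a zinc finger factor that among macrophages is largely restricted to microglia, Sall3 is its relative, Mef2a and Mef2c are MADS-box factors bound at microglial enhancers, and Maf is a basic leucine zipper factor of tissue macrophages. Mitf, Tfeb and Tfe3, the genes the ASOs target, encode related factors that bind E-box sequences and drive lysosomal and autophagy genes.

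Start sites of 4 members that passed a test with genotype or age are shown next, so that the letters before each can be compared: Sall1, Mef2a and Mef2c, which fell with genotype, and the distal and proximal starts of Runx1, which rose with age. Irf8 also passed such tests, and its windows are not printed. RefSeq promoter windows on the GRCm38.p6 build were matched for 6 of the 9 members, giving 12 windows of 300 bases, and none was matched for Maf, Spi1 or Sall3. Each line gives the bases just before a start site, 5′ to 3′ on the strand of the gene, with any match within them to 1 of 7 motifs in capitals. The intervals are those of the printed bases.
Sall1, chr8:89044163-89044412, minus strand: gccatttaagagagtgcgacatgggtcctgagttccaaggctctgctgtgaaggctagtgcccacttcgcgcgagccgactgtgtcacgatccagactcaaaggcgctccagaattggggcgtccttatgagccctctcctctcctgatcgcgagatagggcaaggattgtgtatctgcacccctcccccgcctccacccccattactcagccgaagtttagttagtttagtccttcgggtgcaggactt
Mef2a, chr7:67372849-67373108, minus strand: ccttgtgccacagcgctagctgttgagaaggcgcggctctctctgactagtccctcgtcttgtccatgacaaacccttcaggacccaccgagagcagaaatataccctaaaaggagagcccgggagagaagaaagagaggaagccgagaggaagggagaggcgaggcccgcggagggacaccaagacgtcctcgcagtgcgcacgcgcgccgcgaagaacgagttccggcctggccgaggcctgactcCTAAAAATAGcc
Mef2c, chr13:83523406-83523655, plus strand: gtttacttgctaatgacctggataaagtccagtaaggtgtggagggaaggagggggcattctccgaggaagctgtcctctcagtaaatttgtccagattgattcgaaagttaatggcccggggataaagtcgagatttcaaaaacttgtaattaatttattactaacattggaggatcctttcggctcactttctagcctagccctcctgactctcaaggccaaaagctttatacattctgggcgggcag
Runx1 distal, chr16:92826075-92826324, minus strand: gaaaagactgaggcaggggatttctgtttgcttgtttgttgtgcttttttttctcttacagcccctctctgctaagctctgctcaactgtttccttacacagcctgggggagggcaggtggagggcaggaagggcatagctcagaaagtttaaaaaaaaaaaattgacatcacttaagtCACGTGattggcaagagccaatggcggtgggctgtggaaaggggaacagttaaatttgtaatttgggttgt
Runx1 proximal, chr16:92697330-92697579, minus strand: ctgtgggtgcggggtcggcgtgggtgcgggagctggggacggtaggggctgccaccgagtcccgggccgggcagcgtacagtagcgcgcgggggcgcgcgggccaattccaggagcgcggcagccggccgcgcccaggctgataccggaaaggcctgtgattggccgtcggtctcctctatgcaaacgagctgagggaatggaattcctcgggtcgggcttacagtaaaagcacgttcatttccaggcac
The capitals in the Mef2a window are a MEF2 site, CTAAAAATAG, which spans positions -2 to 8 around the start; 3.19% of all 32851 windows held a MEF2 site. The capitals in the window of the distal Runx1 start are CACGTG, the E-box letters to which MiT/TFE factors bind, at positions -71 to -66; 7.15% of all windows held these letters. The same window held the RUNX motif TGTGGT, read on the opposite strand, at positions 29 to 34 and 37 to 42, after the printed bases; 16.8% of all windows held it. Another Mef2c start, not printed, had the AP-1 motif TGANTCA at positions -137 to -131, as did 7.81% of all windows at any position. The other windows not printed, of Sall1, Irf8, Cebpa and Mef2c, held no match to any of the motifs. The windows of Sall1, Mef2c and the proximal Runx1 start shown above held no match to the motifs searched on both strands, which were the E-box CACGTG, the PU.1 motif GAGGAAGT, the RUNX motif, the C/EBP motif TTGCNNAA, the AP-1 motif, the IRF motif and the MEF2 site. The distal Runx1 window was 45.0% GC and the proximal 69.0%, against a median of 52.7% over all windows. A match describes the letters only, and no binding data were used.

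In mm10 coordinates, Sall1 lies at chr8:89027243-89044162, Irf8 at chr8:120736358-120756692 and Maf at chr8:115703253-115706894. Mef2a lies at chr7:67231163-67372858 and Cebpa at chr7:35119293-35121928, Spi1 at chr2:91096678-91115759, Mef2c at chr13:83524743-83667079, Runx1 at chr16:92601466-92697329 and Sall3 on chromosome 18. The age series tables list 1 RefSeq transcript model a gene and the ASO tables list Ensembl genes. The spans above are those of the models used for the age series counts. The models used for the TPM values reach the distal Runx1 start and the Mef2c start shown above. They span chr16:92601466-92826074 for Runx1 and chr13:83523656-83667079 for Mef2c. Overlapping genes were sought only within the spans of the count models. For Cebpa, Maf and Runx1 an annotated antisense gene overlaps the locus, as does Lysmd4 on the strand opposite to Mef2a and the long gene model Gm20388 on the strand of Irf8. The library protocol marks strand, but whether the counting used strand is not stated, so reads of overlapping genes may not be separated.

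Library totals ran from 8191508 to 27106584 counts in the age series, from 14372015 to 30378870 in the WT ASO libraries and from 12517838 to 30431437 in the SgshKO ASO libraries. The 10 microglial markers summed to between 30582 and 57732 CPM (counts scaled to a common library total) in the age series, and lymphocyte and neuron markers to at most 9.11. In the same series the 10 border macrophage markers summed to 959 to 1926 CPM and the 7 oligodendrocyte markers to 118 to 157. The 5 endothelial markers summed to 18.6 to 25.2 CPM in SgshKO against 8.82 to 11.7 in WT libraries at 3 weeks, and to 31.2 and 31.6 against 10.7 and 18.7 at 4 months. At 8 months they summed to 25.0 to 45.7 CPM in SgshKO libraries, against 10.3 to 11.9 in 3 WT libraries and 26.5 in WT replicate 4. The 7 astrocyte markers summed to 178 to 298 CPM in SgshKO and 288 to 403 in WT libraries at 8 months, and to 191 to 266 and 153 to 165 at 3 weeks. The sum over 12 neutrophil and monocyte markers was 3337 and 16205 CPM in the 4-month SgshKO libraries and 480 to 6248 in the 8-month SgshKO libraries, against 7.20 to 38.4 in every other library of that series. A sum over 10 dissociation and immediate early genes stood at 11683 to 22031 CPM in the 4-month libraries and at 20257 in replicate 1 of the 3-week SgshKO group, against 4076 to 9349 in the rest. This sum was lower in SgshKO than in WT libraries, without overlap, at both later ages. It was 11683 and 13443 against 16910 and 22031 CPM at 4 months, and 4076 to 6893 against 7532 to 9349 at 8 months. At 3 weeks the genotypes overlapped. The part of this sum in the genotype differences was not tested. Sgsh transcript was present in both genotypes, at 31.9 to 59.2 CPM in WT and 20.1 to 34.7 in SgshKO microglia at 8 months, and the labels do not say which part of the gene is changed, so its level is no check of genotype. Nothing in the labels says that libraries came from separate animals, so the p-values measure the spread between libraries, and in bulk RNA fewer cells of a type cannot be told apart from less RNA per cell.

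Per transcript length, Sall1 was the most abundant of the 9 factors in young WT microglia, at 587 ± 18.0 TPM (transcript abundance scaled by length and library; mean ± SD, n = 3) at 3 weeks. Cebpa at 424 ± 78.6, Maf at 368 ± 29.5, Spi1 at 342 ± 38.5, Irf8 at 287 ± 13.3 and Mef2a at 268 ± 35.6 TPM followed, and each of these overlapped its neighbour in the order. Mef2c at 171 ± 9.83, Sall3 at 63.7 ± 12.9 and Runx1 at 46.5 ± 2.75 TPM came last, with no overlap between neighbours from Mef2a down. In 8-month SgshKO microglia the order of the TPM values was different. Cebpa was highest at 505 ± 78.5 (n = 7), followed by Spi1 at 287 ± 16.9, Irf8 at 274 ± 18.2, Sall1 at 261 ± 28.0 and Maf at 260 ± 26.3, and Sall1 overlapped both of its neighbours. Mef2a at 174 ± 21.2, Mef2c at 84.6 ± 12.03, Runx1 at 60.3 ± 9.62 and Sall3 at 44.0 ± 9.42 TPM were the lowest. In 8-month WT microglia Cebpa at 431 ± 125 TPM (n = 4) and Sall1 at 374 ± 58.4 overlapped at the top of the order. The TPM table lists other transcript models than the count table for Mef2a, Mef2c and Runx1, so their places in the order depend on the model.

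SgshKO microglia held less Sall1, Mef2a and Mef2c than WT microglia of the same age at 4 and at 8 months, and more Irf8 at 8 months. None of the 9 genes passed the test at 3 weeks, 3 passed at 4 months, all lower, and 5 passed at 8 months, of which 4 were lower and 1 higher. The test was edgeR's quasi-likelihood test on the counts, with p-values adjusted over all 14309 genes tested and a threshold of 0.05. Among all genes 9.03% passed at 3 weeks and 19.5% at 4 months (9.26% lower and 10.3% higher). At 8 months 40.5% of all genes passed (18.9% lower and 21.6% higher), beside 5 of the 9 factors (4 lower and 1 higher). Whether these shares differ was not tested, and 1 of the 5 calls, Runx1, rested on a single library. The median log2 fold change of the 9 genes was 0.02 at 3 weeks, -0.22 at 4 months and -0.29 at 8 months, beside -0.02, 0.02 and 0.02 over all genes. The neutrophil and monocyte markers moved with genotype at both later ages, with 10 of 12 higher at each, and 8 of 10 microglial markers were lower at each. Of the 3 endothelial markers tested, 3 were higher in SgshKO at 8 months, 0 at 4 months and 1 at 3 weeks. The part of other cells in the values of the 9 genes was not tested. Groups as small as those at 3 weeks and 4 months can lie apart by chance. The share of all genes whose groups did not overlap is not given for these 2 ages.

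**Figure D1:**
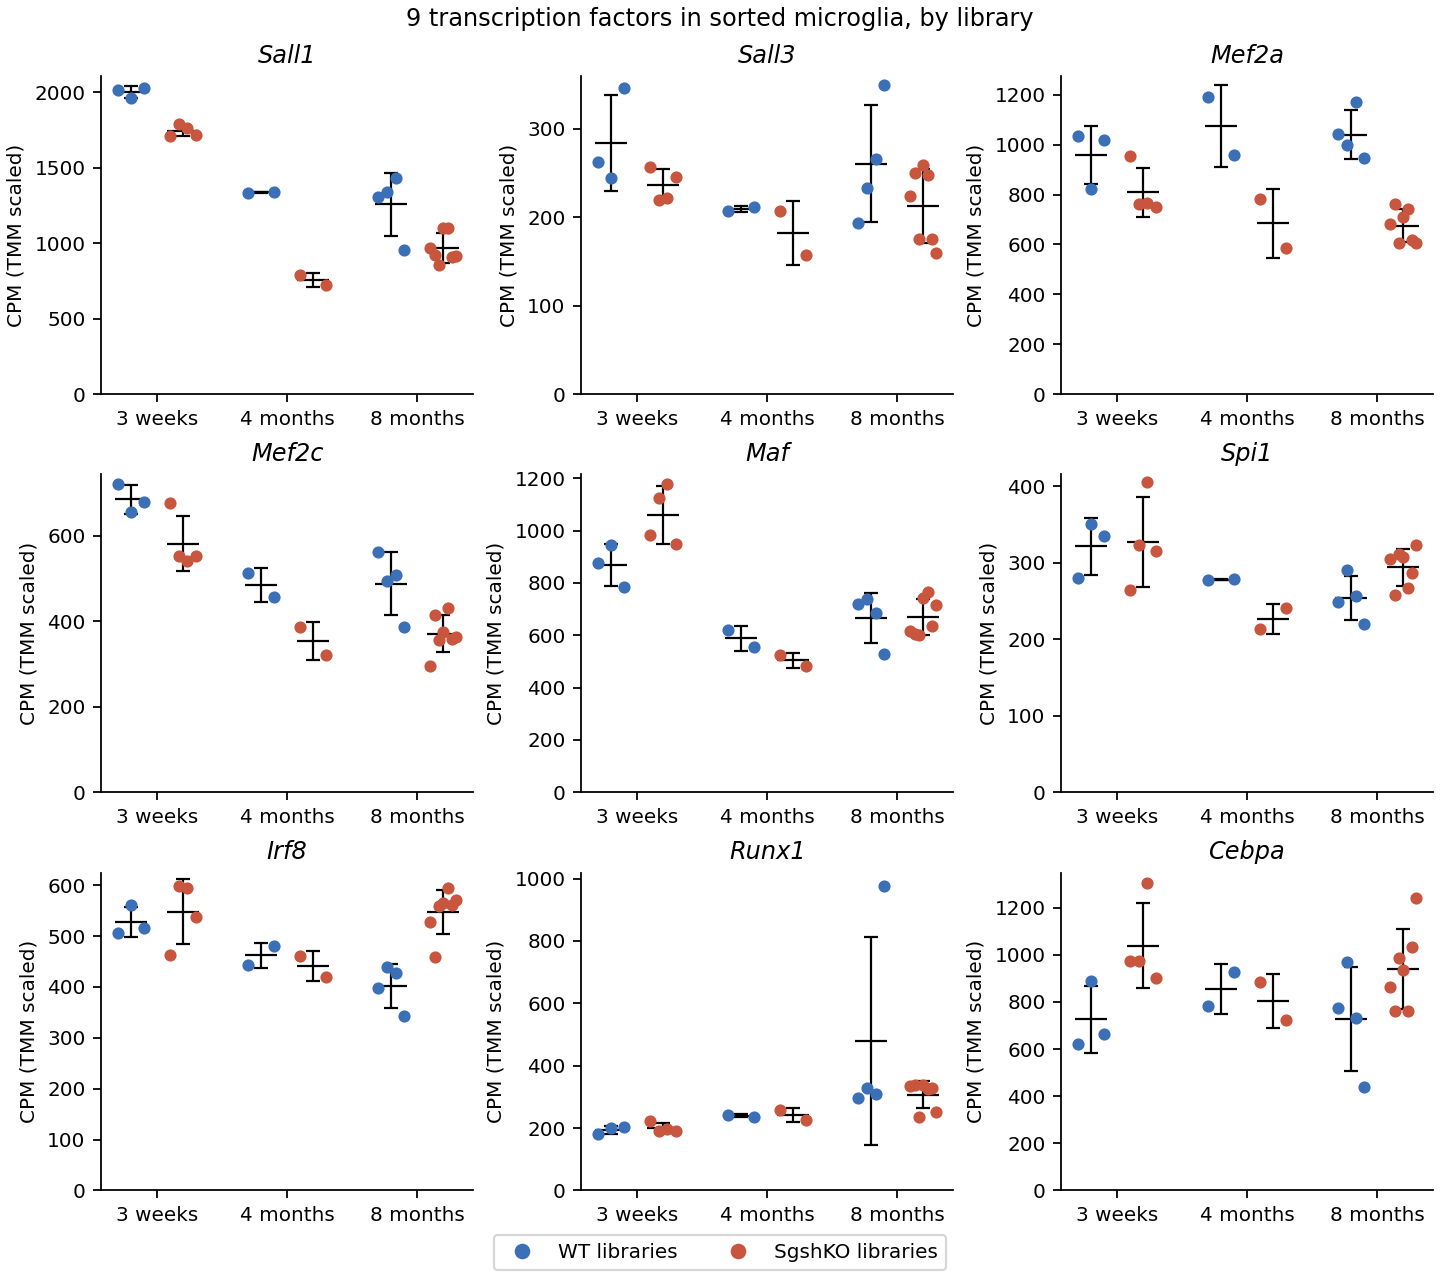
Level of each of the 9 genes, in CPM (vertical axis), in each of the 22 libraries of the age series, grouped by genotype and age; points are libraries and bars are mean ± SD. Sall1 falls from 1958 to 2028 CPM in WT libraries at 3 weeks to 726 and 790.0 in SgshKO libraries at 4 months, and a single WT library at 8 months stands at 978 CPM of Runx1.

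Sall1, which maintains the microglial programme, read 2016, 1958 and 2028 CPM in the 3-week WT libraries and 1712, 1790.4, 1762 and 1715 in the SgshKO libraries. All 4 SgshKO libraries were below all 3 WT libraries, but the log2 fold change of -0.20 (SE 0.10) did not pass the test (edgeR adjusted p = 0.319); it passed with only the compared groups in the fit (0.0443). At 4 months Sall1 read 1335 and 1338 CPM in WT and 790.0 and 726 in SgshKO libraries. Both SgshKO libraries were far below both WT libraries, a 1.76-fold fall (log2 -0.82, 95% interval -1.10 to -0.53, edgeR adjusted p = 0.000124). At 8 months Sall1 read 1303, 1339, 1433 and 955 CPM in WT libraries, and 857 at the lowest, 924 at the median and 1103 at the highest of the 7 SgshKO libraries. WT replicate 4 lay inside the SgshKO range and the other 3 WT libraries lay above it. Sall1 was 1.30-fold lower in SgshKO (log2 -0.38, SE 0.08, edgeR adjusted p = 0.00089), and without WT replicate 4 the log2 fold change was -0.52. The fall at 4 months kept its call in every alternative run, as did the fall at 8 months.

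Sall3, the relative of Sall1, was lower on average at every age, and did not pass the test at any. In WT libraries it read 194, 233, 266 and 349 CPM at 8 months, and in SgshKO libraries 160 at the lowest, 224 at the median and 259 at the highest. The ranges overlapped, with replicate 4 of the WT group the highest of all, and the log2 fold change was -0.29 (95% interval -0.59 to 0.01, edgeR adjusted p = 0.114). It passed without WT replicate 1 (adjusted p = 0.0324 by edgeR's quasi-likelihood test), without the filter on low counts (0.0473) and on the TPM scale with limma (0.0397).

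Mef2a, bound at microglial enhancers, was the one factor that fell at 8 months with no overlap between the groups. At 4 months it read 1191 and 958 CPM in WT and 783 and 586 in SgshKO libraries, and at 8 months 1044, 1000.2, 1173 and 945 CPM in WT libraries. In the 7 SgshKO libraries at 8 months it read 605 at the lowest, 681 at the median and 763 at the highest, so every SgshKO library was below every WT library. Mef2a was 1.57-fold lower at 4 months (log2 -0.65, edgeR adjusted p = 0.0044) and 1.54-fold lower at 8 months (log2 -0.62, 95% interval -0.82 to -0.43, edgeR adjusted p = 1.16e-05). The 8-month call held in every alternative run. The 4-month call was lost without WT replicate 1 (edgeR adjusted p = 0.104) or SgshKO replicate 2 (0.0735). At 3 weeks Mef2a was at -0.24 (edgeR adjusted p = 0.268), with the groups overlapping.

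Mef2c, which restrains microglial responses to inflammatory signals, followed Mef2a with smaller steps. It read 513 and 456 CPM in WT and 386 and 322 in SgshKO libraries at 4 months. At 8 months it read 563, 495, 508 and 387 CPM in WT libraries, and 297, 364.0 and 432 at the lowest, median and highest of the SgshKO libraries. The 4-month groups did not overlap, and at 8 months WT replicate 4 again lay among the SgshKO libraries. The log2 fold change was -0.45 at 4 months (edgeR adjusted p = 0.046) and -0.40 at 8 months (SE 0.10, edgeR adjusted p = 0.0021). The 4-month call was lost without WT replicate 1 (edgeR adjusted p = 0.283), WT replicate 2 (0.0954) or SgshKO replicate 2 (0.231), with RLE scaling (0.0534), with only the compared groups in the fit (0.0503) and when replicate numbers entered as a block (0.0568). The 8-month call held in every alternative run.

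Irf8, the partner of Spi1, was higher in SgshKO than in WT microglia at 8 months. Mean Irf8 was 528 CPM at 3 weeks and 401 at 8 months in WT, and 548 at both ages in SgshKO microglia. At 8 months it read 398, 438, 427 and 342 CPM in WT libraries. In the 7 SgshKO libraries it read 459, 561 and 594 at the lowest, median and highest. Every SgshKO library was above every WT library; only Irf8 and Mef2a, 2 of the 9 genes, had groups that did not overlap at 8 months, as did 25.2% of all genes. Irf8 was 36.5% higher in SgshKO (log2 0.45, SE 0.08, edgeR adjusted p = 0.00011), a call that held in every alternative run. At 3 weeks it was at 0.05 (95% interval -0.15 to 0.26) and at 4 months at -0.07 (-0.34 to 0.20). Leaving out the 2 SgshKO libraries with the most neutrophil marker counts left the 8-month value at 0.45. The SgshKO libraries kept in that fit still summed to 480 to 882 CPM of neutrophil and monocyte markers, against 11.5 to 13.7 in WT. That fit therefore cannot show the part of such cells in the Irf8 value, which was not tested.

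Spi1 and Cebpa, the myeloid lineage factors, gave no call for genotype at any age. Spi1 read 249, 291, 256 and 220 CPM in 8-month WT libraries and 258 to 323 in the SgshKO libraries, with a log2 fold change of 0.21 (95% interval 0.01 to 0.41, edgeR adjusted p = 0.0888). Cebpa read 773, 967, 732 and 437 CPM in 8-month WT libraries and 761 to 1242 in the SgshKO libraries. The Cebpa groups overlapped, and its log2 fold change was 0.37 (95% interval 0.03 to 0.71, edgeR adjusted p = 0.0731). Without WT replicate 2 both passed at 8 months, with edgeR adjusted p = 0.0437 for Spi1 and 0.0157 for Cebpa, and Cebpa also passed there without the filter on low counts (0.024). At 4 months Spi1 was at -0.29 (edgeR adjusted p = 0.201), with groups of only 2 libraries that did not overlap. It passed there on the TPM scale with limma (adjusted p = 0.0493). At 3 weeks Cebpa read 623, 890 and 666 CPM in WT and 902 to 1305 in SgshKO libraries (log2 0.52, edgeR adjusted p = 0.12). Every SgshKO library was above every WT library at that age, and Cebpa passed without the filter (0.0271) and with only the compared groups in the fit (0.0374).

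Runx1 rested on a single library. At 8 months it read 298, 330, 309 and 978 CPM in WT libraries and 234, 330 and 339 at the lowest, median and highest of the SgshKO libraries. WT replicate 4 stood at 3.13 times the geometric mean of the other 3 WT libraries, and those 3 lay inside the SgshKO range. With all libraries Runx1 was 1.56-fold lower in SgshKO (log2 -0.64, edgeR adjusted p = 0.0195). Without WT replicate 4 the log2 fold change was -0.05 (edgeR adjusted p = 0.714), and the call was also lost when replicate numbers entered as a block (0.108) and with only the compared groups in the fit (0.0532). Without that library 4 of the 9 genes passed at 8 months: Sall1, Mef2a, Mef2c and Irf8.

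Maf gave no call for genotype at any age. It read 720.0, 737, 684 and 527 CPM in 8-month WT libraries and 601, 637 and 766 at the lowest, median and highest of the SgshKO libraries. The ranges overlapped almost wholly, and the log2 fold change was 0.00 with a 95% interval of -0.19 to 0.20. At 3 weeks it read 878, 946 and 786 CPM in WT and 948 to 1179 in SgshKO libraries (log2 0.28, edgeR adjusted p = 0.146).

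**Figure D2:**
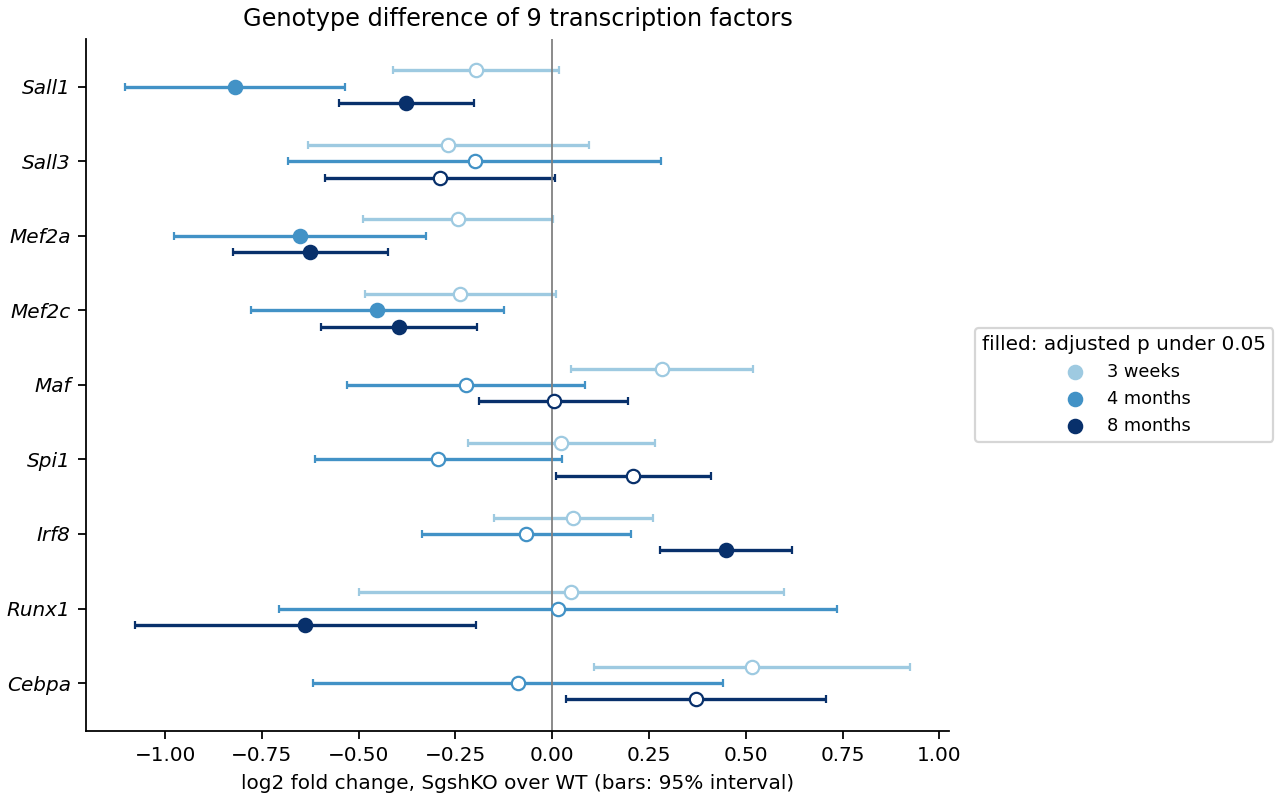
Log2 fold change of SgshKO over WT (horizontal axis) for each of the 9 genes at 3 weeks, 4 months and 8 months; points are estimates, bars are 95% intervals, and filled points have an adjusted p under 0.05 in edgeR's quasi-likelihood test. Sall1 (-0.82), Mef2a (-0.65) and Mef2c (-0.45) are filled and below 0 at 4 months, and Irf8 is the only filled point above 0, at 0.45 at 8 months.

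The fourth WT library at 8 months stood apart for several of the factors. Beside its 978 CPM of Runx1, which ranked 5 of 2130 genes above 100 CPM when sorted by the ratio to the other 3 libraries, Sall3 was at 1.52 times their geometric mean (rank 53). Cebpa was at 0.534 of that mean (rank 2128) and Sall1 at 0.704 (rank 2053). The genes with the largest excess in it, on the log2 scale, were Sbno2 at 2.40, Il1a at 2.24, Il4ra at 2.07 and Socs3 at 1.79. These include a cytokine and a feedback inhibitor of cytokine signalling. Its neutrophil and immediate early sums, 11.5 and 7956 CPM, were near those of the other 3 libraries (11.6 to 13.7 and 7532 to 9349). The microglial markers summed to 42080 CPM in it, against 47548 to 50864 in the others. Astrocyte markers summed to 403 CPM, against 288 to 389, and endothelial markers to 26.5, against 10.3 to 11.9. The part of other cells in this library was not tested.

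**Figure D3:**
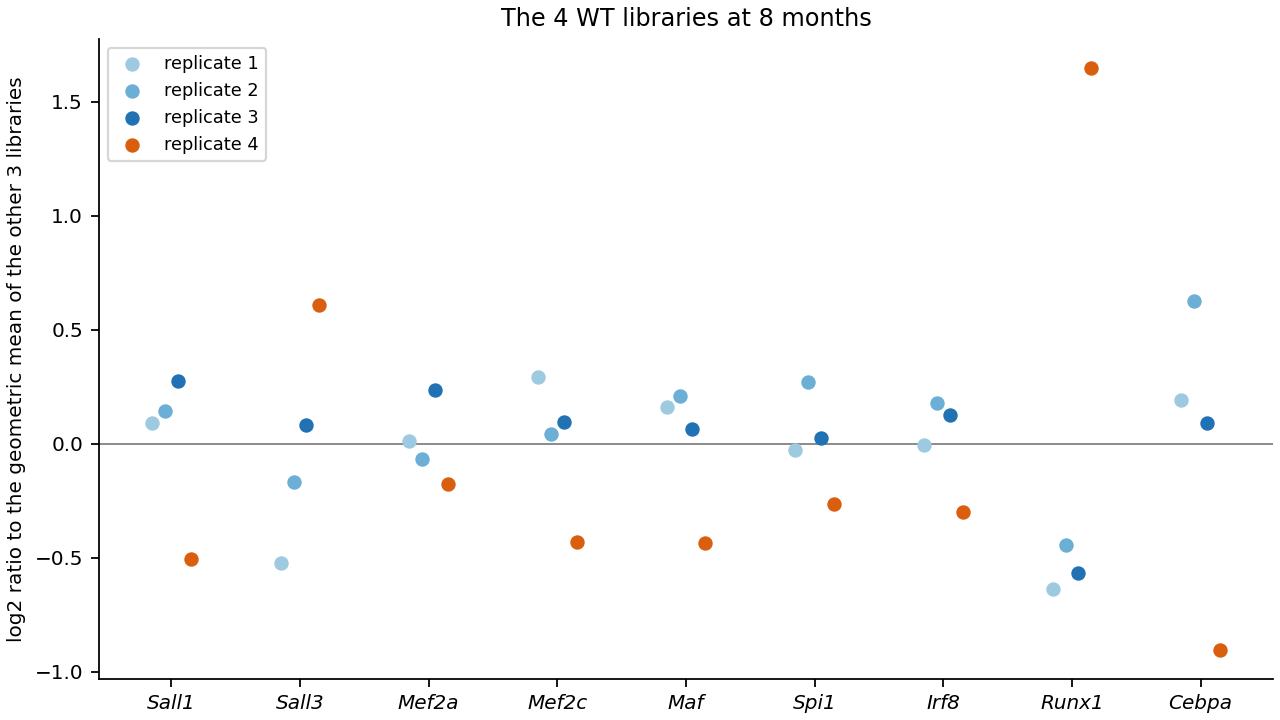
Log2 ratio of each 8-month WT library to the geometric mean of the other 3 (vertical axis) for each of the 9 genes; each point is a library. Replicate 4 is at 1.65 for Runx1 and at -0.90 for Cebpa.

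With age, Sall1, Maf and Mef2c fell in both genotypes. In WT microglia 3 of the 9 genes had fallen by 4 months, none had risen, and 5.21% of all genes passed. Sall1 was 1.50-fold lower (log2 -0.58, edgeR adjusted p = 0.0068), Maf was at -0.57 (0.0154) and Mef2c at -0.50 (0.045). Each of these 3 calls was lost without WT 4-month replicate 1 (edgeR adjusted p = 0.0846 for Sall1, 0.067 for Maf and 0.137 for Mef2c) and without replicate 2 (0.0934, 0.246 and 0.412). The Maf call was lost without WT 3-week replicate 2 (0.0668), and the Mef2c call without any 1 of the 3 WT libraries at 3 weeks (0.071 to 0.119 by edgeR), with RLE scaling (0.051), when replicate numbers entered as a block (0.0603) and on the TPM scale with limma (0.0792). Runx1 passed, higher, with only the compared groups in the fit (log2 0.32, edgeR adjusted p = 0.0402).

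By 8 months 4 of the 9 genes had fallen in WT microglia and 1 had risen, against 4.63% and 3.02% of all genes (7.65% in both directions). Sall1 was 1.59-fold lower than at 3 weeks (log2 -0.67, SE 0.10, edgeR adjusted p = 0.00013), Mef2c was at -0.49 (0.0108) and Irf8 at -0.40 (0.0131). Maf was at -0.38 (edgeR adjusted p = 0.0364), and this call was lost without WT 3-week replicate 1 (0.103) or 2 (0.176) and without 8-month replicate 3 (0.0583) or 4 (0.102). It was also lost with only the compared groups in the fit (0.0746) and when replicate numbers entered as a block (0.0956). The Mef2c call was lost without WT 3-week replicate 1 (edgeR adjusted p = 0.0563) and the Irf8 call without WT 3-week replicate 2 (0.0811). Spi1 passed, lower, with DESeq2 (log2 -0.34, adjusted p = 0.0443). Runx1, at 180, 200.4 and 202 CPM at 3 weeks, was the gene that rose. All 4 WT libraries at 8 months were above all 3 at 3 weeks, with a log2 fold change of 1.30 (edgeR adjusted p = 0.0033), or 0.68 (0.00069) without replicate 4.

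Sall1, Maf and Mef2c were lower with age in SgshKO microglia too. At 4 months 5 of the 9 genes were lower than at 3 weeks and none higher, against 15.2% and 17.6% of all genes (32.7% in both directions). Sall1 was 2.30-fold lower (log2 -1.20, edgeR adjusted p = 1.69e-07), Maf 2.10-fold lower (log2 -1.07, 2.43e-06), Mef2c at -0.72 (0.00043), Spi1 at -0.53 (0.0046) and Irf8 at -0.31 (0.0378). The Irf8 call was lost in 8 of the alternatives, among them without SgshKO 3-week replicate 2 (edgeR adjusted p = 0.0942), 3 (0.0873) or 4 (0.053) and without 4-month replicate 2 (0.183); the others were RLE scaling (0.0664), no filter (0.0564), only the compared groups (0.0776) and the replicate block (0.0863). Mef2a, at -0.24 (edgeR adjusted p = 0.183), passed without SgshKO 4-month replicate 1 (0.0289), and Sall3 passed, lower, with only the compared groups in the fit (log2 -0.37, edgeR adjusted p = 0.0483). The immediate early sums of all 4-month libraries, 11683 to 22031 CPM, were above those of every 3-week library except SgshKO replicate 1 (20257), and the part of this in the age differences was not tested.

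At 8 months 4 of the 9 genes were lower than at 3 weeks in SgshKO microglia and 1 was higher, against 15.1% and 15.5% of all genes (30.6% in both directions). Sall1 was 1.80-fold lower (log2 -0.85, edgeR adjusted p = 3.66e-08), Maf was at -0.66 (5.44e-06) and Mef2c at -0.65 (1.63e-05), and these 3 calls held in every alternative run. Mef2a was at -0.26 (edgeR adjusted p = 0.0433) and Runx1 at 0.61 (0.0387). The Mef2a call was lost without SgshKO 3-week replicate 1 (log2 -0.18, edgeR adjusted p = 0.213) or 2 (0.0525) and without 8-month replicate 1 (0.05004), 3 (0.07), 6 (0.0678) or 7 (0.0699), and without replicates 1 and 3 together, the libraries highest in neutrophil markers (0.0994). It was also lost with RLE scaling (0.0521) and the replicate block (0.131). The Runx1 call was lost without any 1 of the 4 SgshKO libraries at 3 weeks (0.056 to 0.0897 by edgeR) and without 8-month replicate 1, 2, 4, 5 or 6 (0.0566 to 0.0636), and with DESeq2 (0.0512), the replicate block (0.0528) and limma on the TPM scale (0.131). Irf8 was at 0.00 (95% interval -0.17 to 0.17) between these ages in SgshKO microglia.

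Whether the genotype effect itself differed between ages was tested as an interaction, and none of the 9 genes passed at 4 months or at 8 months against 3 weeks, while 2.52% and 9.25% of all genes did. Sall1 came closest at 4 months, with a difference of -0.62 (95% interval -0.98 to -0.26, edgeR adjusted p = 0.0542). It passed without the filter on low counts (0.0356), with only the compared groups in the fit (0.0064), with DESeq2 (0.0138), on the TPM scale with limma (0.0402) and without SgshKO 4-month replicate 1 (0.036 by edgeR). Irf8 came closest at 8 months, with a difference of 0.39 (95% interval 0.13 to 0.66, edgeR adjusted p = 0.0546). It passed with RLE scaling (0.0415), with DESeq2 (0.0139), and, by edgeR, without SgshKO 3-week replicate 2 (0.0438) or 3 (0.0457), WT 8-month replicate 2 (0.0459) or SgshKO 8-month replicate 2 (0.0257).

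The relatives of the 9 factors moved in both directions with genotype at 8 months. Of 29 family relatives 24 were tested, and 6 were higher and 7 lower in SgshKO, with a median log2 fold change of -0.13 beside 0.02 over all genes. Irf7, an interferon response factor, was 2.56-fold higher at 25.9 ± 7.50 CPM (SD, n = 7) against 10.2 ± 3.59 (n = 4), and Maff, a small Maf protein, was 5.13-fold higher at 5.57 against 1.10 CPM. Cebpe, a factor of maturing granulocytes, read 4.55 ± 5.78 CPM in SgshKO and 0.097 ± 0.194 in WT libraries, beside the neutrophil marker sums given above. Cebpb and Cebpd, 2 inflammation-induced relatives of Cebpa, were 2.62-fold and 2.91-fold lower. Cebpb read 136 ± 24.8 CPM in SgshKO against 356 ± 95.2 in WT libraries. Cebpd read 47.4 ± 6.93 against 138 ± 97.3 CPM, a wide spread among the WT libraries, although the groups did not overlap. Its fold change without single WT libraries is not given. Irf5 was at -0.44 and Cebpz at -0.40, while Cbfb, the partner subunit of Runx1, was at 0.26, and these also passed the test.

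Of 41 other macrophage and microglial transcription factors 10 were higher and 17 lower at 8 months, with a median log2 fold change of -0.07. Bhlhe40, a repressor of the basic helix-loop-helix class, read 25.8 ± 6.84 CPM in SgshKO (n = 7) against 0.346 ± 0.208 in WT (n = 4). Hif1a, the hypoxia-inducible factor, was 2.84-fold higher at 410 ± 39.1 against 144 ± 12.1 CPM. Rxra was at 0.51, and these 3 genes had groups that did not overlap. Lower were Ets1 (log2 -0.87), Smad3 (-0.67), Smad4 (-0.50) and Ikzf1 (-0.48); Smad3 and Smad4 carry signals of TGF-beta receptors. Of 5 receptors and ligands upstream of the factors 3 were lower and none higher. Csf1r, the receptor on which microglial survival depends, read 8516 ± 439 CPM in SgshKO and 12961 ± 621 in WT libraries (log2 -0.61), Tgfbr1 was at -0.59 and Nrros at -0.38. Of the 4 MiT/TFE factors Mitf was 1.79-fold higher, at 87.7 ± 8.79 against 48.9 ± 4.94 CPM, and Tfeb, Tfe3 and Tfec did not pass.

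At 4 months 1 of the 24 tested relatives was higher and 4 were lower in SgshKO, 4 of the 41 other factors were higher and 6 lower, and 3 of the 5 receptors and ligands were lower. At 3 weeks none of the relatives, receptors or ligands passed, and 5 of the 41 other factors were higher and 3 lower. Scaling bears on these splits. On the TPM scale the median of all genes was at -0.12 at 4 months and -0.14 at 8 months, and the share of calls that were higher in SgshKO was 33.6% at 8 months in place of 53.3% on counts, 40.2% in place of 52.6% at 4 months and 44.2% in place of 58.8% at 3 weeks.

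The 4 members with the widest range of group means each had genes of a closely similar course over the 22 libraries of the age series, measured as the root mean square difference of centred log2 CPM. Gpam, an enzyme of glycerolipid synthesis, was nearest to Sall1 at 0.13, followed by Marcks at 0.14 and Atmin at 0.14, where the median over all genes was 0.60. Mgat4a was nearest to Mef2c at 0.10 and Sirpa to Maf at 0.16. The genes nearest to Runx1 were further off, with Ugcg at 0.25, C5ar1 at 0.27 and Slc39a14 at 0.28 against a median of 0.64. C5ar1 was also among the 10 genes with the largest excess in WT 8-month replicate 4. These distances are descriptive, and the libraries share genotype and age groups.

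In WT mice each ASO lowered its own target. Mitf read 34.5 to 50.4 CPM under the ntc ASO and 1.01 to 2.15 under the Mitf ASO, a 28.1-fold fall. Tfeb read 52.6 to 58.1 and 4.59 to 6.91 CPM under the ntc and Tfeb ASOs, and Tfe3 192 to 202 and 34.9 to 40.5 under the ntc and Tfe3 ASOs. Each was measured against the same 4 ntc libraries, and the fits held the grp number of the labels as a block. The labels do not say what a grp stands for. The control ASO itself moved none of the 9 genes against PBS by edgeR's quasi-likelihood test, in which 0 of 10277 genes passed. At an unadjusted p under 0.05 there were 415 genes, 1 of them a member, Sall3, at -0.20, while DESeq2 called 2 genes and limma on the deposited batch-corrected values 1.

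The Mitf ASO lowered Sall1 and Mef2c in WT microglia by small steps. These 2 of the 9 genes passed against the ntc ASO, both lower, and none rose, while 11% of all genes passed (5.21% lower). The median log2 fold change of the 9 was -0.13, beside -0.01 over all genes. Sall1 read 1169, 1193, 1381 and 1388 CPM under the ntc ASO in grp 1 to 4, and 964, 997, 1181 and 1318 under the Mitf ASO in the same order. Every grp was lower under the Mitf ASO although the ranges overlapped, a fall of 13.4% (log2 -0.21, SE 0.06, edgeR adjusted p = 0.0218). Mef2c read 671, 688, 601 and 731 CPM under the ntc ASO and 572, 583, 548 and 683 under the Mitf ASO, lower in all 4 grp, a fall of 11.4% (log2 -0.18, edgeR adjusted p = 0.0125). Both calls were lost without Mitf ASO replicate 1 (edgeR adjusted p = 0.0946 and 0.066) or 2 (0.0931 and 0.06), the Sall1 call also without ntc replicate 1 (0.0617) or 3 (0.0777), and both without the grp block (0.39 and 0.324).

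Mef2a and Sall3 were lower in all 4 grp under the Mitf ASO and did not pass the test. Mef2a read 830.3, 723, 792 and 822 CPM under the ntc ASO and 728, 623, 693 and 729.9 under the Mitf ASO (log2 -0.19, edgeR adjusted p = 0.0583). It passed with only the compared groups in the fit (0.0052), with DESeq2 (0.0415) and on the batch-corrected values with limma (0.0267). Sall3 was at -0.20 (edgeR adjusted p = 0.168), and passed with only the compared groups in the fit (0.0233). The 5 other members, Spi1, Irf8, Maf, Runx1 and Cebpa, lay between -0.13 and 0.02.

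**Figure D4:**
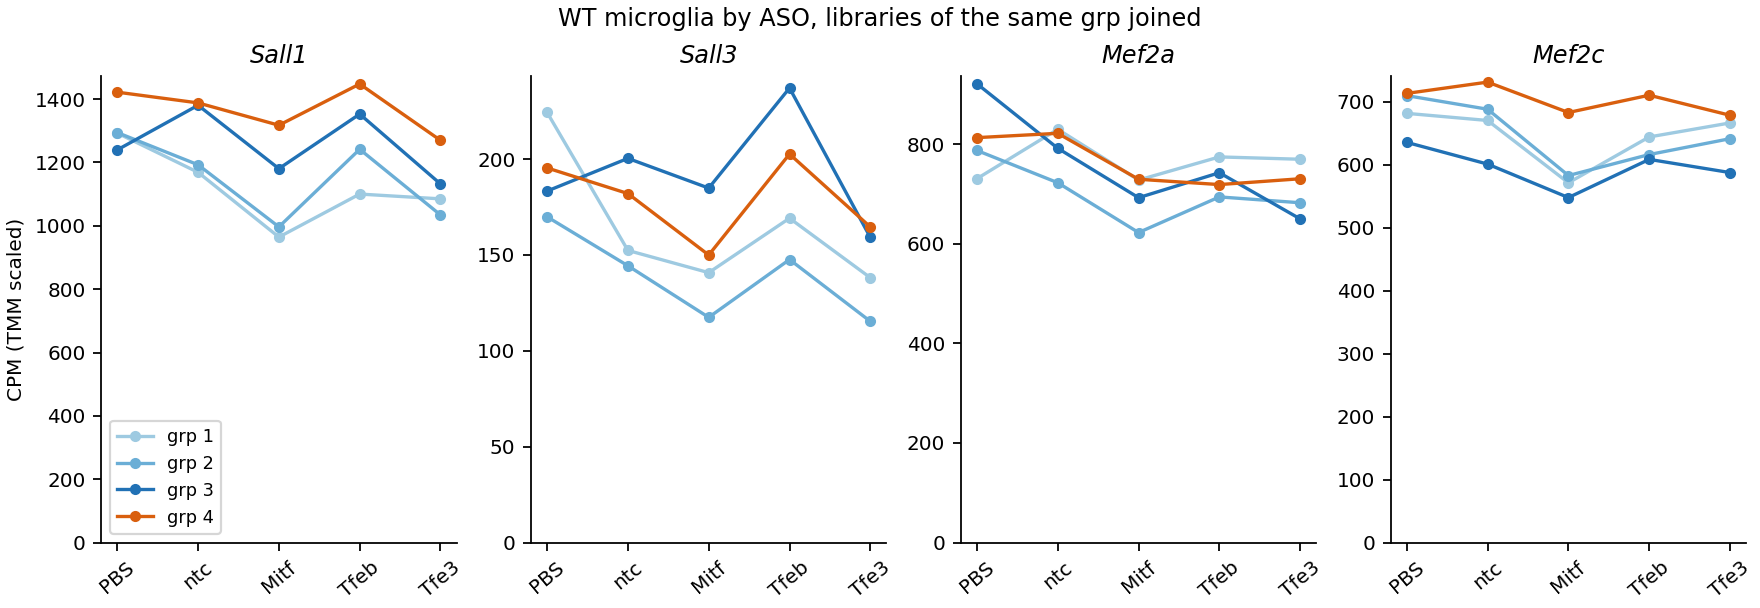
CPM (vertical axis) of Sall1, Sall3, Mef2a and Mef2c in each WT library by injected treatment; lines join libraries of the same grp. In all 4 grp each of these genes is lower under the Mitf ASO than under the ntc ASO, for example 964 against 1169 CPM of Sall1 in grp 1.

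Under the Tfeb ASO and the Tfe3 ASO none of the 9 genes passed against the ntc ASO, where 0.778% and 2.16% of all genes did. Sall1 was at 0.00 under the Tfeb ASO, with a 95% interval of -0.12 to 0.12. Under the Tfe3 ASO it read 1085, 1034, 1132 and 1269.9 CPM in grp 1 to 4, lower than under the ntc ASO in all 4, with a log2 fold change of -0.18 (95% interval -0.30 to -0.06, edgeR adjusted p = 0.103). The 3 ASOs were also compared directly, in 3 pairs. Against the Tfeb ASO, the Mitf ASO gave lower Sall1 (log2 -0.21, edgeR adjusted p = 0.0438) and lower Sall3 (log2 -0.35, edgeR adjusted p = 0.0394), with 3.53% of all genes called. Between the Mitf and Tfe3 ASOs no member passed, with 3.76% of all genes called, and Sall1 differed by -0.03 (95% interval -0.14 to 0.09). Sall3 was higher under the Tfeb than the Tfe3 ASO (log2 0.38, edgeR adjusted p = 0.0385; 1.62% of all genes).

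Sall3 passed in 2 of the 3 direct comparisons between ASOs. It read 152, 144, 200.4 and 182 CPM under the ntc ASO, 141, 117, 185 and 150.0 under the Mitf ASO, 169, 148, 237 and 203 under the Tfeb ASO and 138, 115, 159 and 165 under the Tfe3 ASO, each in grp 1 to 4. Within every grp the Tfeb library was the highest of the 4 ASO libraries. The PBS libraries read 170 to 224 CPM of Sall3 with a mean of 193, beside means of 189 under the Tfeb ASO and 170 under the ntc ASO. The Tfeb ASO was not tested against PBS. For Sall3 the call between the Mitf and Tfeb ASOs and the call between the Tfeb and Tfe3 ASOs each depended on single libraries. The Sall3 call between the Mitf and Tfeb ASOs was lost without Mitf replicate 1, 2 or 4 or Tfeb replicate 2, 3 or 4 (edgeR adjusted p 0.0937 to 0.174). Its call between the Tfeb and Tfe3 ASOs was lost without Tfeb replicate 2, 3 or 4 or any 1 Tfe3 library (0.0635 to 0.166 by edgeR). The Sall1 call between the Mitf and Tfeb ASOs was lost without Mitf replicate 1, 2 or 3 or Tfeb replicate 2, 3 or 4 (0.0682 to 0.22 by edgeR). All 3 calls were lost without the grp block (0.525 to 0.671).

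Among the relatives, 5 of the 17 tested were lower and none higher under the Mitf ASO against the ntc ASO, among them Sall2 at -0.36 (edgeR adjusted p = 0.002), and of 36 other factors 3 were higher and 6 lower. Hif1a, at 0.38 (edgeR adjusted p = 0.0222), and the stress factor Atf3, at 0.34 (0.0215), were higher. Of the 10 microglial markers 3 were lower. Between ASOs, Atf3 was higher (log2 0.51) and Cebpd lower (-0.33) under the Mitf than the Tfeb ASO, and Bhlhe41, a relative of Bhlhe40, was lower under the Tfe3 ASO than under the Mitf (0.29) and Tfeb (0.28) ASOs.

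In SgshKO mice the ASOs against Mitf and Tfe3, given together, lowered both targets. Mitf read 60.7 to 82.1 CPM in the ntc libraries and 7.51 to 23.2 with both ASOs, and Tfe3 137 to 194 and 75.0 to 87.1. The 8 neutrophil and monocyte markers listed in this table summed to 5.52 to 632 CPM in ntc libraries and 4.32 to 406 with both ASOs. Of the 9 genes 1 passed against the ntc ASO, Runx1, which was lower, while 9.33% of all genes passed (4.5% lower). Runx1 read 235 at the lowest, 252 at the median and 298 at the highest of 8 ntc libraries and 198, 214 and 253 in the 8 libraries with both ASOs. The ranges overlapped, and the fall was 13.8% (log2 -0.21, SE 0.06, edgeR adjusted p = 0.0294). It was -0.12 within grp 1 alone (edgeR adjusted p = 0.411). The call was also lost without ntc grp 1 replicate 1 (0.0516 by edgeR) or 2 (0.0531), ntc grp 2 replicate 1 (0.0522), and, of the treated libraries, grp 2 replicate 2 (0.054) or 3 (0.0635) and grp 1 replicate 1 (0.0518) or 3 (0.0598).

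None of the members that had been lower in 8-month SgshKO microglia, other than Runx1, passed the test with the paired ASOs. Sall1 read 766, 968 and 1129 CPM at the lowest, median and highest ntc library and 860.2, 978 and 1091 with both ASOs, a log2 fold change of 0.03 with a 95% interval of -0.08 to 0.14. Mef2c was at 0.00 (-0.09 to 0.09), Mef2a at -0.09 (-0.20 to 0.02) and Irf8 at -0.02 (-0.12 to 0.08). Spi1 passed, higher, on the batch-corrected values with limma (log2 0.16, adjusted p = 0.0253). In a fit of both grp together, with a treatment effect for each, Sall3 went opposite ways in the 2 grp. It was at 0.42 in grp 1 (edgeR adjusted p = 0.0102, 12.7% of all genes called). In grp 2 it was at -0.21 (edgeR adjusted p = 0.29, 1.84% of all genes). Sall3 did not pass when grp 1 was fitted alone. The difference between the 2 grp was -0.63 (edgeR adjusted p = 0.111) and did not pass. In grp 1 Sall3 read 97.3 to 112 CPM in ntc libraries and 115 to 152 with both ASOs, and in grp 2 132 to 164 and 115 to 145. Of the genes around the factors, Irf7 was higher with both ASOs (log2 0.94, edgeR adjusted p = 0.00028), as was Csf1r (0.16, edgeR adjusted p = 0.0257).

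**Figure D5:**
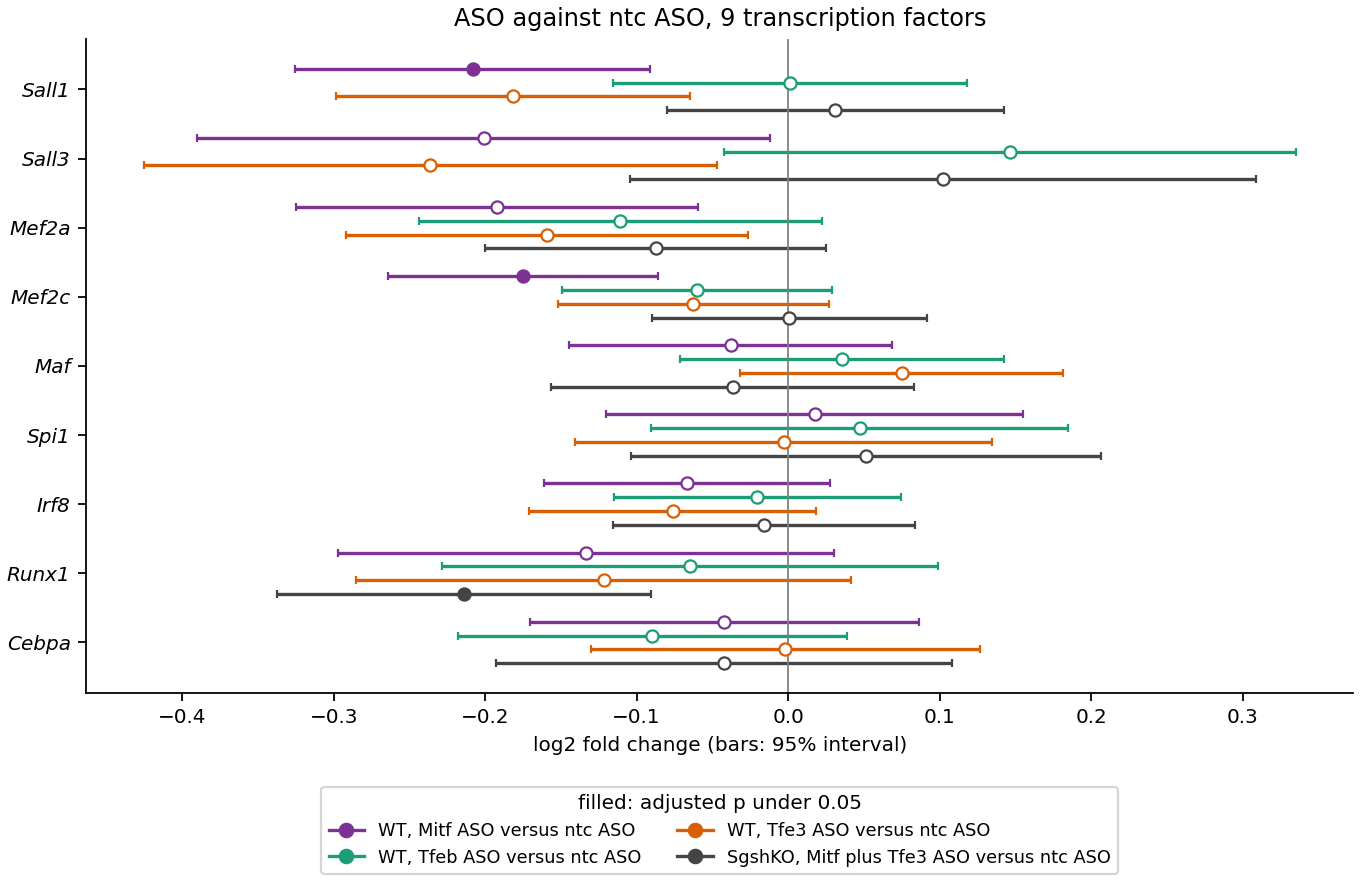
Log2 fold change against the ntc ASO (horizontal axis) for each of the 9 genes under the Mitf, Tfeb and Tfe3 ASOs in WT mice and under the Mitf and Tfe3 ASOs together in SgshKO mice; bars are 95% intervals and filled points have an adjusted p under 0.05. Filled are Sall1 (-0.21) and Mef2c (-0.18) under the Mitf ASO and Runx1 (-0.21) in SgshKO mice.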

How the data were processed

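Sorted microglia were profiled by RNA-seq in 58 libraries that the labels place in 13 groups. The submitters' processing notes name STAR 2.5.3a, kallisto 0.44.0, HOMER 4.11, DESeq2 1.36.0, R 4.2.3 and the mm10 build, with no role for each. The authors deposited raw counts in 3 tables, 1 for each set of libraries; the ASO tables held 10277 and 10589 genes, and the rule by which those were chosen is not given in the sources used here. The deposited TPM values, named as such per the file headers, were used for the order of levels and in an alternative. The deposited normalised and batch-corrected signal values of the ASO libraries, whose method is not given in the sources used here, served in an alternative only.

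Counts were tested with edgeR 4.0.16 in R 4.3.3 (quasi-likelihood F test, TMM scaling, filterByExpr with a minimum count of 10, Benjamini-Hochberg adjustment over all genes tested, threshold 0.05) after a check on simulated counts. All 22 libraries of the age series entered 1 fit. The WT ASO fit held the grp number as a block and the SgshKO ASO fit held grp as a covariate. CPM values are counts scaled to a common TMM-adjusted library total, and intervals are at 95%. Same-numbered WT ASO libraries tended to deviate together (r 0.122 to 0.640 over the 28 compared pairs, mean 0.398), and the numbers come from the labels. Over all 40 same-numbered pairs r was -0.0333 to 0.640, with a mean of 0.354. The mean of -0.117 for other pairs follows largely from centring each gene on its treatment mean. The title of PBS replicate 4 gives grp 4 and its column name grp 3; it was placed in grp 4, with which its mean r was 0.429, against 0.188 with grp 3. Alternatives were RLE scaling, no filter, only the compared groups in the fit, DESeq2 1.42.0, limma 3.58.1 on log2(TPM + 1) and on log2(batch-corrected value + 1), the block added or removed, grp alone, and leaving out each library. Another, not planned at first, left out replicates 1 and 3 of the 8-month SgshKO group together.

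The members and the gene lists were chosen with earlier results of these data known. All members are named in the text, and of the lists the up to 4 genes a direction with the smallest adjusted p at 8 months, the up to 2 a direction in each ASO comparison, and the 3 genes nearest in course to each of the 4 members of widest range. 1 gene under this rule is not reported here. Promoter windows came from RefSeq.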

Additional observations from a re-analysis of the deposited data

Results flagged for a closer look

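Of 90 sets of libraries of 1 group examined for 1 member, 3 held a library far from the others, where chance gives about 1 in 20. Runx1 was highest at 978 CPM in replicate 4 of the 8-month WT group, where the other 3 libraries read 298 to 330 CPM. Mef2a and Mef2c were both highest in replicate 1 of the 3-week SgshKO group, at 956 and 678 CPM, where the other 3 libraries read 749 to 767 and 541 to 554 CPM. That replicate also held the highest sum of immediate early genes at 3 weeks, 20257 CPM. Without it the 3-week genotype difference was -0.33 for Mef2a (edgeR adjusted p = 0.0983) and -0.31 for Mef2c (0.130). The cause of these values was not tested.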

How the results depend on the processing

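Over 2403 recomputed values of single members 2147 kept direction and side of the threshold, 99 lost their call (73 of them without 1 library), 30 gained one, and no called value reversed. The number of the 9 genes called at 3 weeks was 0, but 1 without the filter and 2 with only the compared groups in the fit. For the interaction at 4 months it was 0, but 1 without the filter, with only the compared groups, with DESeq2 and on log2(TPM + 1); at 8 months it was 0, but 1 with RLE scaling and DESeq2. For SgshKO microglia at 8 months against 3 weeks it was 5, but 3 with the replicate block. For the Mitf ASO against ntc it was 2, but 4 with only the compared groups and 0 with no replicate block; without the block it was also 0 in place of 2 for Mitf against Tfeb and 0 in place of 1 for Tfeb against Tfe3. For both ASOs in SgshKO mice it was 1, but 0 within grp 1 alone and 2 on the batch-corrected values.

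Without each library in turn, the number called ran from 1 to 3 for genotype at 4 months, 4 to 7 at 8 months, 0 to 2 for WT at 4 months against 3 weeks and 3 to 5 at 8 months, 4 to 6 and 3 to 4 for SgshKO at those ages, 0 to 1 for either interaction, 0 to 2 for Mitf against ntc and against Tfeb, and 0 to 1 for Tfeb against Tfe3 and for both ASOs in SgshKO mice. In fits with 1 library left in a 4-month group, that library is assumed to vary like the other groups.

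Counts of all genes called moved by more than 1.5 times as follows. With only the compared groups in the fit, they were 1518 in place of 746 for WT at 4 months against 3 weeks, 450 in place of 80 for Tfeb and 359 in place of 167 for Tfeb against Tfe3. With DESeq2 they were 685 in place of 361 for the 4-month interaction, 213 for Tfeb, 403 in place of 222 for Tfe3, 573 in place of 363 for Mitf against Tfeb and 408 for Tfeb against Tfe3. On the batch-corrected values they were 145 for Tfeb and 284 for Tfeb against Tfe3. With no replicate block they were 211 in place of 1128 for Mitf, 9 for Tfeb, 29 for Tfe3, 33 for Mitf against Tfeb, 100 in place of 386 for Mitf against Tfe3 and 7 for Tfeb against Tfe3. In SgshKO mice they were 452 in place of 988 without the grp covariate, and 192 and 430 within grp 1 and grp 2, each fitted alone. Without 1 library they ran from 1441 to 2708 in place of 2794 for genotype at 4 months, 190 to 532 for WT at 4 months, 664 to 1156 in place of 1094 for WT at 8 months, 2641 to 4480 in place of 4686 for SgshKO at 4 months, 100 to 699 for the 4-month interaction, 621 to 970 for Mitf, 24 to 63 for Tfeb, 79 to 140 for Tfe3, 118 to 458 for Mitf against Tfeb, 218 to 303 for Mitf against Tfe3 and 48 to 568 for Tfeb against Tfe3. On the TPM scale 39.8% of calls were higher in SgshKO microglia at 8 months against 3 weeks in place of 50.7%, and 49.2% in place of 64.7% for the 8-month interaction. The cause was not tested.

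Replicate numbers did not pair the age libraries (r -0.171 to 0.115). Same-numbered SgshKO ASO libraries within a grp all had positive r (0.0839 to 0.612, mean 0.221 over 8 pairs). The mean was 0.323 in grp 1 and 0.119 in grp 2, and the replicate number entered as a block only in an alternative. At these depths and group sizes, differences as small as -0.18 (log2) passed in the WT ASO set.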

Other observations

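The 10 genes above 100 CPM with the largest excess in the fourth 8-month WT library also held Stat3, Jak3, Irf2bpl, Midn and C5ar1. On the log2 scale Stat3 was at 1.39 above the mean log2 CPM of the other 3 WT libraries, Jak3 at 1.27, Irf2bpl at 1.58, Midn at 1.54 and C5ar1 at 1.26. No label sets this library apart, and these values are given without a test.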
